A study of Homo sapiens with 12 samples.

Results

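Cells that run short of an amino acid, or whose endoplasmic reticulum is stressed, switch on a shared programme. The kinase GCN2 senses uncharged tRNA, phosphorylates the translation factor eIF2 and thereby raises translation of the transcription factor ATF4, which binds C/EBP-ATF response elements in its target genes. The genes described here are 10 well-known members of this amino acid stress response, ASNS, PSAT1, PHGDH, SLC7A11, DDIT3, ATF3, CHAC1, TRIB3, DDIT4 and SESN2. They were picked by name and with the responses to SOX2 knock-down already known, because DDIT4 and ASNS responded differently in the 2 lines. All 10 were measured by a probe set of 1 gene, out of 18404 genes measured in this way.

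RNA came from 2102Ep and NTera-2 cells, human embryonal carcinoma lines, and was profiled on Affymetrix Human Gene 1.0 ST arrays. NTera-2 cells are pluripotent, whereas 2102Ep cells are called nullipotent because retinoic acid does not readily differentiate them. Each line received an siRNA against SOX2 (siSOX2) or the non-targeting Ambion Silencer Select Negative Control #1 for 6 hours, followed by 72 hours in growth medium that was renewed daily. There were 3 arrays in each of 4 groups, named 2102Ep control, 2102Ep siSOX2, NTera-2 control and NTera-2 siSOX2. 2102Ep cells were transfected with Lipofectamine 2000 and NTera-2 cells with Lipofectamine RNAiMAX and another amount of siRNA, so that line, reagent and amount cannot be told apart. All groups are transfected lines with no untransfected arrays, and 1 siRNA against SOX2 was used, so that effects of this siRNA on other transcripts cannot be told apart from those of SOX2 loss. The labels call the arrays biological replicates but do not say how cultures were kept separate, so the p-values measure the spread between these arrays.

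Values are log2 signals, in which a difference of 1 is 2-fold. The SOX2 signal after siSOX2 stood at 11.4% of control in 2102Ep (95% interval 9.59 to 13.5%) and at 64.0% in NTera-2 (53.9 to 75.9%). By the authors' qRT-PCR, too, more SOX2 mRNA was left in NTera-2, while their Western blots detected no SOX2 protein after siSOX2 in either line. The depth of SOX2 mRNA loss thus also differed between the lines and cannot be told apart from line in the responses. All 10 measured embryonal carcinoma markers lay above the median gene signal of 8.03, and so did 0 of 5 leukocyte, 2 of 6 fibroblast and 1 of 4 endothelial markers. The core factors POU5F1 and NANOG, listed as markers too, were not measured by a probe set of 1 gene. Arrays of 1 group correlated at 0.9835 to 0.9963 across genes. NTera-2 siSOX2 replicate 3 ran slightly high, with 75.6% of all genes above their group mean, and the median change of all genes in NTera-2 was 0.0425 (log2). In bulk RNA, fewer cells that express a gene and less RNA per cell cannot be told apart.

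The promoters of 3 members carried the core of the C/EBP-ATF response element, TGATGNAA on either strand, within the 250 bases before and 50 bases after a RefSeq start site (GRCh38.p14). They are shown because this element is the one through which ATF4 is known to act on ASNS. The stretches in CHAC1 and ATF3 are matches to the core, and whether ATF4 acts there was not tested. The core is in capitals, each sequence runs 5′ to 3′ on the strand of the gene, and in CHAC1 the core lies on the opposite strand.
ASNS: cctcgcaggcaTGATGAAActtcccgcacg
CHAC1: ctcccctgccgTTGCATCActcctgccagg
ATF3: aaaggtcaggaTGATGGAAggctgtcatat
The ASNS stretch lies on the minus strand at chr7:97872458-97872487, with the core at -68 to -61 from a start site. That of CHAC1 lies at chr15:40953251-40953280 on the plus strand and that of ATF3, at the more upstream of its 2 start sites, at chr1:212565205-212565234 on the plus strand. Of the 27305 genes in the promoter table, 4.46% held this core at a start site, and of all 35116 promoter windows 3.62% did. DDIT4, DDIT3, TRIB3, PSAT1, PHGDH and SESN2 had no match in this window. The DDIT4 promoter held ACGTG, a form of the core of the hypoxia response element, shown in capitals because DDIT4 is also known as a hypoxia target.
DDIT4: gaacgttgcttACGTGcgcccggagtc
This stretch lies at chr10:72273788-72273814 on the plus strand, and 24.9% of all genes in the table, or 21.4% of all promoter windows, held ACGTG on either strand. Of the 9 members with a promoter in the table, DDIT4 was the 1 with ACGTG, the only form of this core that was searched for. The letters are a description of sequence and no binding was measured here.

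ASNS makes asparagine from aspartate and glutamine and is among the best-known ATF4 targets. In 2102Ep it read 9.23, 9.72 and 9.15 on the control arrays and 8.40, 8.42 and 8.39 on the siSOX2 arrays. In NTera-2 the control arrays read 9.65, 9.99 and 9.92 and the siSOX2 arrays 9.38, 9.49 and 9.34. In both lines every siSOX2 array lay below every control array. The log2 change was -0.96 (SE 0.135) in 2102Ep, which left 51.3% of the control signal, and -0.45 (SE 0.135) in NTera-2, which left 73.0%. The change in 2102Ep was thus 0.51 lower (SE 0.191). The level was highest in NTera-2 control and lowest in 2102Ep siSOX2, while NTera-2 siSOX2 and 2102Ep control overlapped between them.

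DDIT4, also called REDD1, restrains the growth kinase complex mTORC1 and is induced by amino acid stress, hypoxia, p53 and glucocorticoids. It read 9.16, 9.16 and 9.10 in 2102Ep control and 8.21, 8.14 and 8.13 in 2102Ep siSOX2, with no overlap. In NTera-2 it read 7.78, 8.20 and 7.98 in control and 8.27, 8.38 and 8.35 after siSOX2, again with no overlap but in the opposite direction. The changes were -0.98 (SE 0.108) and 0.34 (SE 0.108) on the log2 scale, 50.9% and 127% of the control signal, and they differed by -1.32 (SE 0.153). Of all genes, 1.66% had siSOX2 and control arrays that did not overlap in both lines but in opposite directions, and DDIT4 was the 1 member among them. Its highest level was in 2102Ep control, which lay above all other arrays, and the arrays of 2102Ep siSOX2 and NTera-2 control overlapped. Because these responses chose both genes, their changes and those of the other members are given as a description with no test.

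**Figure D1:**
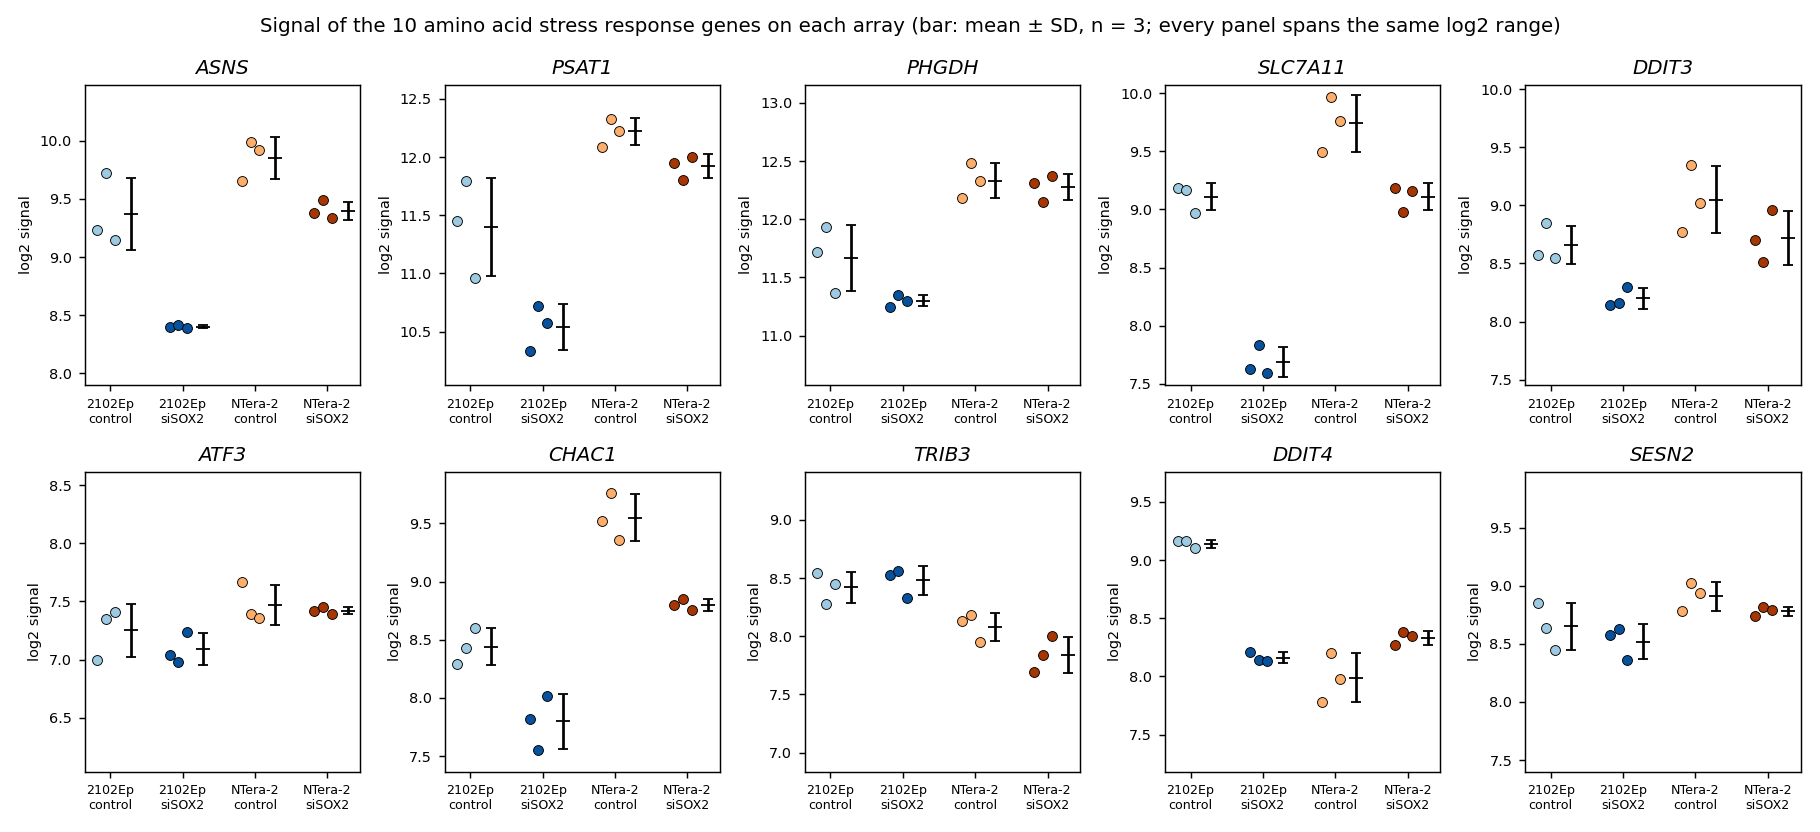
Log2 signal (vertical axis) of each of the 10 genes on the 12 arrays, by line and siRNA (horizontal axis), with the mean and SD of each group (n = 3) as a black bar; all panels span the same number of log2 units. ASNS after siSOX2 in 2102Ep sits at 8.39 to 8.42, below its 2102Ep control arrays at 9.15 to 9.72. DDIT4 reads 9.10 to 9.16 in 2102Ep control and 8.13 to 8.21 in 2102Ep siSOX2. In NTera-2 it reads 7.78 to 8.20 in control and 8.27 to 8.38 in siSOX2.

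SLC7A11, the cystine and glutamate exchanger that supplies cysteine for glutathione, had the largest change of the 10 in 2102Ep. It read 9.18, 9.17 and 8.97 in 2102Ep control and 7.63, 7.83 and 7.59 in 2102Ep siSOX2. In NTera-2 it read 9.49, 9.97 and 9.76 in control and 9.18, 8.98 and 9.16 after siSOX2. The groups did not overlap in either line, and NTera-2 siSOX2 lay at the level of 2102Ep control. The log2 change was -1.42 (SE 0.126), or 37.4% of control, in 2102Ep and -0.63 (SE 0.126), or 64.4%, in NTera-2.

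The serine synthesis enzymes PHGDH and PSAT1, which catalyse its first and its next step, had lower siSOX2 means in both lines. PSAT1 read 11.45, 11.79 and 10.96 in 2102Ep control and 10.33, 10.72 and 10.57 in 2102Ep siSOX2. In NTera-2 it read 12.09, 12.33 and 12.22 in control and 11.95, 11.80 and 12 after siSOX2. These groups did not overlap in either line, and the changes were -0.86 (SE 0.163) and -0.30 (SE 0.163). PHGDH changed by -0.37 (SE 0.131) in 2102Ep, where its lowest control array (11.37) lay just above its highest siSOX2 array (11.35). In NTera-2 it changed by -0.06 (SE 0.131), with control arrays at 12.18 to 12.48 and siSOX2 arrays at 12.15 to 12.37, which overlapped. A further probe set shared by PHGDH and MZT2B was not used.

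CHAC1 degrades glutathione and is a target of ATF4. It read 8.29, 8.43 and 8.60 in 2102Ep control and 7.82, 7.55 and 8.02 in 2102Ep siSOX2, and 9.52, 9.76 and 9.36 in NTera-2 control against 8.80, 8.85 and 8.76 in NTera-2 siSOX2. The siSOX2 arrays lay below the control arrays in both lines. The changes, -0.64 (SE 0.132) and -0.74 (SE 0.132), differed by 0.10 with a 95% interval of -0.29 to 0.49. CHAC1, TRIB3 and SESN2 were the 3 members whose change was lower in NTera-2 than in 2102Ep, by 0.10, 0.29 and 0.01.

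DDIT3, which encodes the transcription factor CHOP, changed by -0.46 (SE 0.146) in 2102Ep, with no overlap, and by -0.32 (SE 0.146) in NTera-2, where the control range of 8.77 to 9.35 overlapped the siSOX2 range of 8.51 to 8.96. ATF3, a bZIP factor of the same pathway and the only member below the median gene signal, changed by -0.17 (SE 0.125) and -0.05 (SE 0.125), with overlap in both lines. TRIB3, a pseudokinase that dampens ATF4 and CHOP, changed by 0.05 (SE 0.116) in 2102Ep and -0.24 (SE 0.116) in NTera-2. SESN2, a leucine sensor that restrains mTORC1, changed by -0.12 (SE 0.118) and -0.13 (SE 0.118). The groups of ATF3, TRIB3 and SESN2 overlapped in both lines.

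In 2102Ep 9 of the 10 members had a change below 0, with a median of -0.551 beside -0.01 for all genes, of which 52.4% were below 0. In NTera-2 9 of 10 were below 0 too, with a median of -0.27 beside 0.043 for all genes, of which 38.9% were below 0. The exception was TRIB3 in 2102Ep and DDIT4 in NTera-2. In 2102Ep 7 members had siSOX2 arrays all below the control arrays and 0 all above, where 12.6% of all genes lay below and 12.6% above. In NTera-2 4 members lay below (7.06% of all genes) and 1, DDIT4, above (14.2%). Since the responses chose the members, nothing is read from these counts. The mean of the 10 embryonal carcinoma markers also stood lower after siSOX2, at 11.27 against 11.80 in 2102Ep and 11.32 against 11.66 in NTera-2. That of the 6 fibroblast markers stood higher, at 6.76 against 6.48 and 6.63 against 6.30, and that of the 4 endothelial markers lower, at 7.46 against 7.74 and 7.04 against 7.24. The leukocyte markers stood at 5.56 to 5.58 in all 4 groups. The part of these shifts in the changes of the members was not tested.

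**Figure D2:**
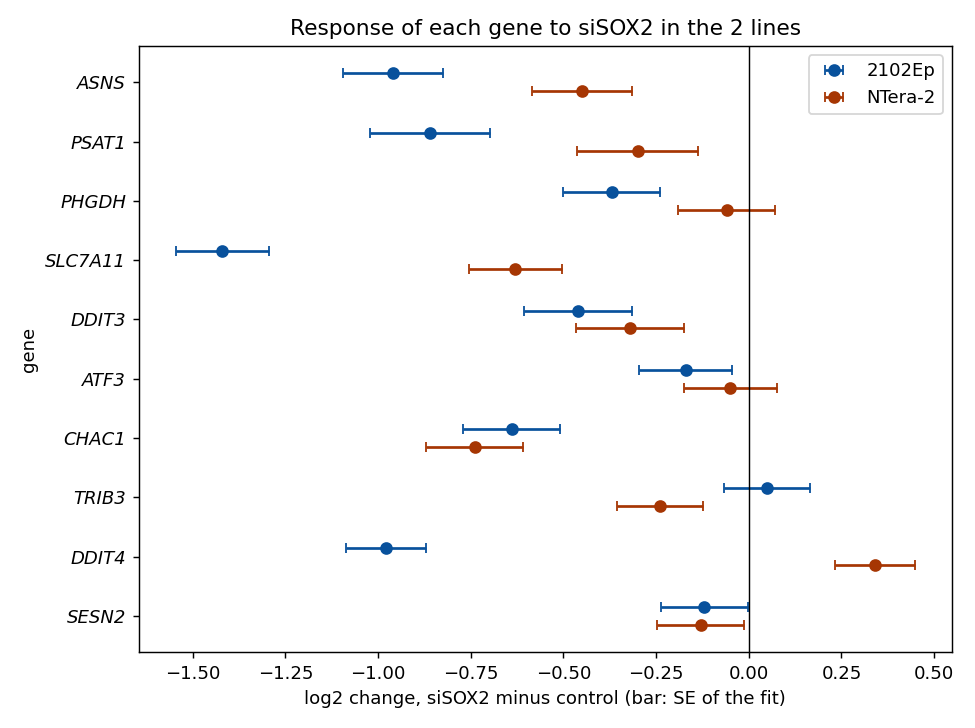
Log2 change after siSOX2 (horizontal axis) of each of the 10 genes (vertical axis) in 2102Ep (blue) and NTera-2 (brown), with the SE of the fit as bars. SLC7A11 has the lowest value in 2102Ep (-1.42) and CHAC1 in NTera-2 (-0.74), and DDIT4 lies at -0.98 in 2102Ep and 0.34 in NTera-2.

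Within the control groups the members deviated together on some arrays. On NTera-2 control replicate 2, 9 of the 10 members were above their group mean, with a median deviation of 0.143, and on replicate 1 2 of 10 were, with a median of -0.142. The median deviation of all genes on these arrays was -0.002 and 0.004, with 49.4% and 51% of all genes above their group mean. In 2102Ep control 7 of 10 members were above their group mean on replicate 2 (median deviation 0.082) and 3 of 10 on replicate 3 (-0.12), where the medians of all genes were -0.039 and 0.009. There 40.6% and 52% of all genes were above. On the remaining control arrays, NTera-2 replicate 3 and 2102Ep replicate 1, 5 and 6 of 10 members were above, beside 51% and 58.9% of all genes. On the siSOX2 arrays of both lines 4 to 7 of 10 members were above, with median deviations of -0.025 to 0.035. There 34.5% to 75.6% of all genes were above. Deviations within a group are tied by its mean, so high and low arrays of 1 group are not separate observations. When single arrays were left out, the change of ASNS in NTera-2 ran from -0.556 to -0.384 and that of DDIT4 from 0.239 to 0.45, and in 2102Ep from -1.07 to -0.789 and from -1.002 to -0.96. The part of this spread in the responses was not tested.

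The difference between the lines was averaged over control and siSOX2 arrays and tested. In this balanced design the error of its estimate is uncorrelated with that of either response. Its value still includes the siSOX2 arrays and so shifts with the responses known when the members were picked. These tests are therefore not independent of that choice. In NTera-2 PSAT1 was higher by 1.10 (log2, SE 0.115; limma adjusted p = 3.52e-07), CHAC1 by 1.05 (SE 0.0935; adjusted p = 4.29e-08), SLC7A11 by 1.03 (SE 0.089; adjusted p = 3.26e-08), PHGDH by 0.82 (SE 0.0924; adjusted p = 8.26e-07) and ASNS by 0.74 (SE 0.0953; adjusted p = 3.64e-06). DDIT3 (0.46), ATF3 (0.27) and SESN2 (0.26) were higher too, by less than 2-fold, with adjusted p of 0.00114, 0.014 and 0.0137. TRIB3 was lower in NTera-2 (-0.49, SE 0.0817; adjusted p = 6.94e-05). For CHAC1, PSAT1 and PHGDH all 6 NTera-2 arrays lay above all 6 2102Ep arrays (16.8% of all genes), and for TRIB3 below (13% of all genes).

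All 10 members passed the adjusted p alone, 8 higher and 2 lower in NTera-2, as did 55.3% of all genes, 27.4% higher and 28% lower. With the 2-fold threshold 3 passed, PSAT1, CHAC1 and SLC7A11, all higher, against 7.08% of all genes in either direction and 4.24% higher. These 3 lay close to the threshold. PSAT1 stood at 0.987 and SLC7A11 at 0.992 without 2102Ep control replicate 3, SLC7A11 at 0.967 without NTera-2 control replicate 2 and CHAC1 at 0.993 without 2102Ep siSOX2 replicate 2. After quantile normalization again CHAC1 stood at 0.997 and SLC7A11 at 0.955. Between control arrays alone PSAT1 differed by 0.82, under 2-fold, and between siSOX2 arrays by 1.38. In each of these cases the adjusted p still passed. The average hides the pattern of DDIT4, which was lower in NTera-2 on average (-0.49, SE 0.0765; adjusted p = 3.32e-05). Between control arrays it stood at -1.15, while between siSOX2 arrays it stood at 0.17, higher in NTera-2. ASNS differed by 0.49 between control arrays and by 1.00 between siSOX2 arrays, and SLC7A11 by 0.63 and 1.42. CHAC1 differed by 1.10 and 1.00.

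**Figure D3:**
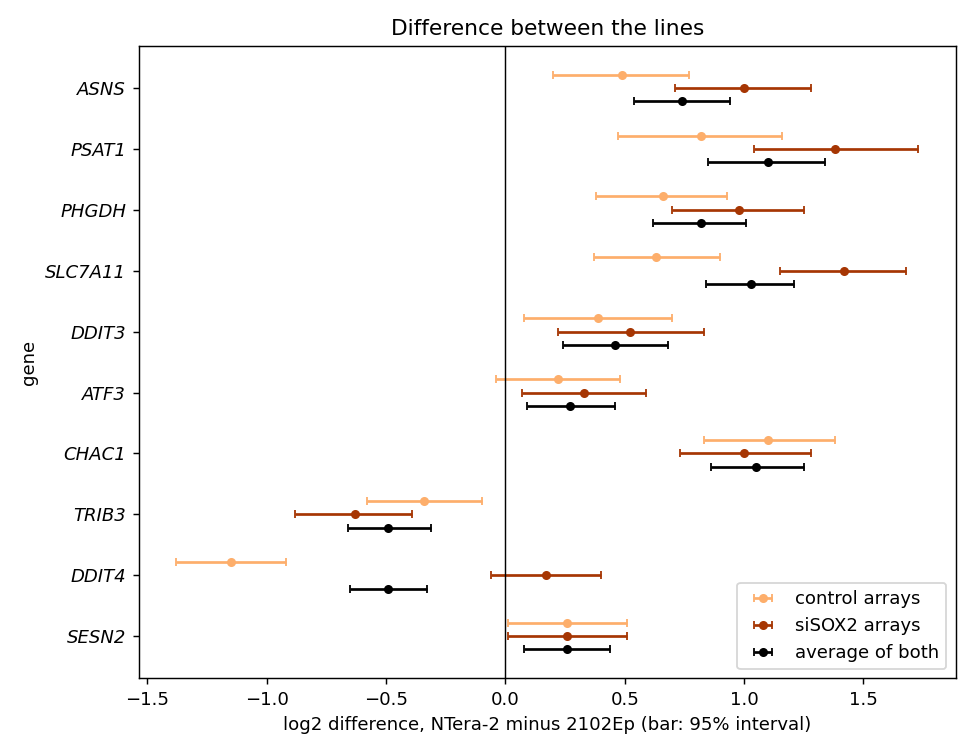
Log2 difference between NTera-2 and 2102Ep (horizontal axis) of each gene (vertical axis) on control arrays, on siSOX2 arrays and as the average of both, with 95% intervals as bars. The average is above 0 for 8 genes and below 0 for TRIB3 and DDIT4 (both at -0.49), and for DDIT4 the control arrays (-1.15) and the siSOX2 arrays (0.17) lie on opposite sides of 0.

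Other genes of the pathway, of related stress responses and of further inputs to DDIT4 were taken from 13 lists. They held 211 genes, of which 199 were measured. None of these genes is a member. A gene was called at an adjusted p of 0.05 or less and an unadjusted p of 0.01 or less with a 2-fold change or more, and a gene is said to rise or fall where it passed the adjusted p alone. In 2102Ep 5 of the 199 genes were called, all lower, against 1.98% of all genes called and 0.826% called lower. At the adjusted p alone 15 rose and 35 fell there, against 12.7% of all genes (6.76% and 5.9%). In NTera-2 4 were called, 1 higher and 3 lower, against 0.657% of all genes (0.31% higher and 0.348% lower). At the adjusted p alone 10 rose and 14 fell there, against 4.94% (2.96% and 1.98%). The shares of all genes at the adjusted p alone are those to set beside the counts of each list below. Of the difference between the responses 8 were called, 3 higher and 5 lower, against 1.66% of all genes (0.989% and 0.668%). Hypoxia targets made up 4 of the genes called in 2102Ep and 2 of those in NTera-2. They also made up 2 of the higher and 3 of the lower genes of the difference, so these pooled counts do not stand for the ATF4 pathway alone. Without 2102Ep siSOX2 replicate 1, 9 rather than 5 genes were called in 2102Ep. Of the genes that passed the adjusted p but not the 2-fold threshold, 18 of 45 in 2102Ep and 14 of 20 in NTera-2 no longer passed when at least 1 single array was left out, and none changed direction. Of those named here these were ADM, BCAT1, LARS1, PCK2, PGD, SEL1L, SHMT1 and SLC2A3 in 2102Ep and ALDH1L2, DEPTOR, EGLN3, FAS, GDF15, JUN, KLHL24, SLC7A7, TALDO1 and TSC1 in NTera-2.

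Upstream of ATF4, none of the 9 genes of the eIF2 kinases, phosphatase subunits and their partners passed the limma adjusted p in either line, and at an unadjusted p under 0.05 there were 2 in 2102Ep and 1 in NTera-2. PPP1R15A, a stress-induced subunit that returns eIF2 to its active form, stood at -0.13 and 0.16, and EIF2AK3, the kinase PERK, at -0.17 and 0.29. PPP1R15A was lower in NTera-2 than in 2102Ep (-1.23, SE 0.0658; limma adjusted p = 7.48e-11). ATF4 itself is controlled mostly by translation, which arrays do not measure. Its mRNA did not pass in either line (-0.27 with SE 0.09 in 2102Ep and -0.06 in NTera-2; limma adjusted p = 0.064 and 0.851), and its other probe set ran the other way (0.252 and 0.274). Of the 13 genes of ATF4 and its partner factors, 2 passed the adjusted p in NTera-2, JUN (0.42) and FOS (-0.54), subunits of the AP-1 factor, and 0 in 2102Ep, where 1 had an unadjusted p under 0.05.

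Among enzymes of serine, glycine, proline and one-carbon metabolism, which neighbour PHGDH and PSAT1, 5 of 16 fell and 1 rose in 2102Ep at the adjusted p alone, and 3 fell in NTera-2. Of all genes 5.9% fell and 6.76% rose in 2102Ep, and 1.98% fell in NTera-2. The list median was -0.235 in 2102Ep and -0.17 in NTera-2, beside -0.01 and 0.043 for all genes. Both lines had lower signals of GLDC, which cleaves glycine (-0.97 and -0.64), ALDH1L2, a mitochondrial folate enzyme (-0.67 and -0.42), and PCK2, a mitochondrial enzyme that makes phosphoenolpyruvate (-0.42 and -0.65). MTHFD2, a mitochondrial folate enzyme, fell in 2102Ep (-0.60), as did BCAT1, a branched-chain aminotransferase (-0.51). SHMT1 rose by 0.55 in 2102Ep. None of the 16 was called with the 2-fold threshold, and without 2102Ep siSOX2 replicate 3 only 3 of them fell in 2102Ep. Between the lines 1 of the 16 was called higher and 1 lower in NTera-2. PSPH, the last enzyme of serine synthesis, was higher by 1.15 (SE 0.108; limma adjusted p = 8.6e-08). CTH, also on this list, was lower (-1.07, SE 0.0873; limma adjusted p = 1.48e-08).

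Amino acid transporters went both ways. Of 22, 2 rose and 3 fell in 2102Ep and 3 rose and 1 fell in NTera-2 at the adjusted p alone. The glutamate transporter SLC1A3 read 9.03, 8.81 and 8.74 in 2102Ep control and 8.13, 8.19 and 7.90 after siSOX2, a change of -0.78 (SE 0.132) that passed the adjusted p alone. In NTera-2 it read 7.04, 7.11 and 7.19 in control and 7.40, 7.45 and 7.88 after siSOX2, a change of 0.46 that did not pass. The difference between the responses was called (-1.25, SE 0.187; limma adjusted p = 0.000408). SLC7A5, the large neutral amino acid exchanger, rose by 0.56 in 2102Ep, and SLC7A7, which forms a cationic amino acid exchanger, rose by 0.97 there and by 0.42 in NTera-2. SLC7A3, a cationic amino acid transporter, stood at -0.32 and 0.36. Of 19 cytosolic tRNA synthetases, several of them ATF4 targets, WARS1 (-0.76), TARS1 (-0.49) and LARS1 (-0.33) fell in 2102Ep at the adjusted p alone, and 0 passed in NTera-2, where 1 had an unadjusted p under 0.05. On median-centred arrays 5 synthetases fell in 2102Ep.

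Of 16 other targets of ATF4 and CHOP, 4 fell and 2 rose in 2102Ep at the adjusted p alone, and 2 fell and 1 rose in NTera-2. STC2, a secreted glycoprotein induced by ATF4, was the 1 gene of them that was called. It read 8.90, 8.72 and 8.78 in 2102Ep control and 7.26, 7.26 and 6.98 after siSOX2, and 7.78, 7.86 and 7.80 in NTera-2 control and 7.03, 6.77 and 7.11 after siSOX2. The siSOX2 arrays lay below control in both lines, with changes of -1.64 (SE 0.114; limma adjusted p = 1.66e-08) and -0.85 (SE 0.114; adjusted p = 0.000143). The lipoprotein receptor VLDLR (-0.96), RAB39B (-0.66) and EIF4EBP1, an mTORC1 substrate that restrains translation (-0.53), fell in 2102Ep. The stress hormone GDF15 rose in 2102Ep (0.53) and fell in NTera-2 (-0.42; adjusted p = 0.0371). The fall in NTera-2 did not pass with the replicate number as a block, nor without any 1 of the NTera-2 control arrays, NTera-2 siSOX2 replicates 1 or 2, or 2102Ep siSOX2 replicates 1 or 2, where 1 rather than 2 targets fell. The signal of GDF15 was lower in NTera-2 (-3.66, SE 0.0787; adjusted p = 1.14e-15). KLHL24 stood at -0.39 in 2102Ep and rose in NTera-2 (0.53). Of 21 genes of the unfolded protein response of the endoplasmic reticulum, 1 passed in 2102Ep, SEL1L, a subunit of the degradation machinery (0.37), and 0 in NTera-2, where 1 had an unadjusted p under 0.05. EDEM1, which targets misfolded proteins for degradation, stood at 0.21 and -0.06, and DNAJC3, a chaperone, at -0.07 and 0.21. Of 13 NRF2 targets 0 were called in either line. At the adjusted p alone, HMOX1, which degrades haem, fell in both lines (-0.64 and -0.61), PGD fell in 2102Ep (-0.43), TALDO1 fell in NTera-2 (-0.39) and ME1 rose in 2102Ep (0.59).

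Further lists covered other known inputs to DDIT4. Of 25 hypoxia targets, 15 fell and 4 rose in 2102Ep at the adjusted p alone, where 5.9% of all genes fell and 6.76% rose. The list median was -0.445, beside -0.01 for all genes. In NTera-2 2 fell and 1 rose, with a median of 0.034 beside 0.043 for all genes. When single arrays were left out, 10 to 16 fell in 2102Ep and 2 or 3 in NTera-2. BNIP3, a mitophagy receptor, read 12.56, 12.97 and 12.43 in 2102Ep control and 11.32, 11.43 and 11.40 after siSOX2, with no overlap. In NTera-2 it read 10.44, 10.45 and 10.49 in control and 10.23, 10.12 and 10.35 after siSOX2. The changes were -1.27 (SE 0.124; limma adjusted p = 1.25e-06) and -0.23. The glycolytic enzyme ALDOC (-1.04) and the collagen prolyl hydroxylase P4HA1 (-1.07) were called in 2102Ep too, while in NTera-2 they stood at 0.034 and 0.21. ALDOC was under 2-fold without 2102Ep control replicate 1 (-0.925) or 2 (-0.987), and P4HA1 without 2102Ep control replicate 2 (-0.934).

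Other hypoxia targets went differently. ADM, the vasodilator peptide adrenomedullin, read 9.14, 9.06 and 9.26 in 2102Ep control and 8.92, 8.85 and 8.63 after siSOX2. It read 9.96, 9.91 and 10.05 in NTera-2 control and 8.59, 8.51 and 8.46 after siSOX2. Its change was -0.35 in 2102Ep and -1.45 (SE 0.105; limma adjusted p = 1.7e-07) in NTera-2. AK4, an adenylate kinase of mitochondria, changed by -1.70 and -2.99 and was called in both lines, but its other probe set changed by -0.619 and -0.603, which leaves the size uncertain. EGLN3, an oxygen sensor, rose in both lines (0.93 and 0.52), and BHLHE40 (0.94), NDRG1 (0.57) and SLC2A3 (0.33) rose in 2102Ep. INSIG2, a brake on sterol synthesis, and PFKFB4, a regulator of glycolysis, fell in 2102Ep (-0.62 and -0.58) and stood at 0.32 and 0.22 in NTera-2.

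Of 19 p53 targets, 2 rose and 1 fell in 2102Ep, and 1 rose and 2 fell in NTera-2, all at the adjusted p alone. FAS, a death receptor, stood at 0.34 in 2102Ep and fell in NTera-2 (-0.47), and RRM2B, a ribonucleotide reductase subunit, stood at -0.35 and 0.17. Between the lines 16 of these 19 were lower and 0 higher in NTera-2, where 28% of all genes were lower. Of 5 glucocorticoid targets, SGK1, a kinase of ion transport, fell in 2102Ep (-0.92) and 0 passed in NTera-2, where 1 had an unadjusted p under 0.05. KLF9, a transcription factor, stood at -0.27 and 0.12. Among 13 regulators of mTORC1, the complex that DDIT4 and SESN2 restrain, DEPTOR, an inhibitory subunit, fell in 2102Ep and rose in NTera-2 at the adjusted p alone. It read 8.01, 7.78 and 7.57 in 2102Ep control and 7.07, 7.17 and 6.91 after siSOX2, and 6.43, 6.39 and 6.13 in NTera-2 control and 6.67, 6.87 and 6.97 after siSOX2. Its change was -0.74 (SE 0.13) in 2102Ep and 0.52 (SE 0.13) in NTera-2, with no overlap in either line, and the difference of -1.26 (SE 0.183) had a limma adjusted p of 0.000308. TSC1, a further inhibitor of the pathway, rose in NTera-2 (0.46). The GTPase RRAGD stood at 0.08 and -0.41 and the arginine sensor CASTOR1 at -0.07 and 0.28.

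A last list held 9 relatives or namesakes of the members. In 2102Ep 2 of them rose at the adjusted p alone, the namesakes GADD45G and GADD45B, and 0 were called. In NTera-2 1 was called higher and 1 lower. SESN3, a paralogue of SESN2, read 8.25, 8.26 and 8.09 in NTera-2 control and 9.49, 9.36 and 9.53 after siSOX2, a rise of 1.26 (SE 0.116; limma adjusted p = 2.48e-06), and stood at 0.352 in 2102Ep. TRIB2, a paralogue of TRIB3, read 10.79, 10.93 and 10.86 in NTera-2 control and 9.79, 9.87 and 9.64 after siSOX2, a change of -1.09 (SE 0.109; adjusted p = 5.95e-06), and stood at -0.125 in 2102Ep. GADD45G and GADD45B, which share the growth arrest and DNA damage naming of DDIT3 but not its protein family, rose in 2102Ep (0.86 and 0.52). CHAC2, a paralogue of CHAC1, stood at -0.38 and -0.01.

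**Figure D4:**
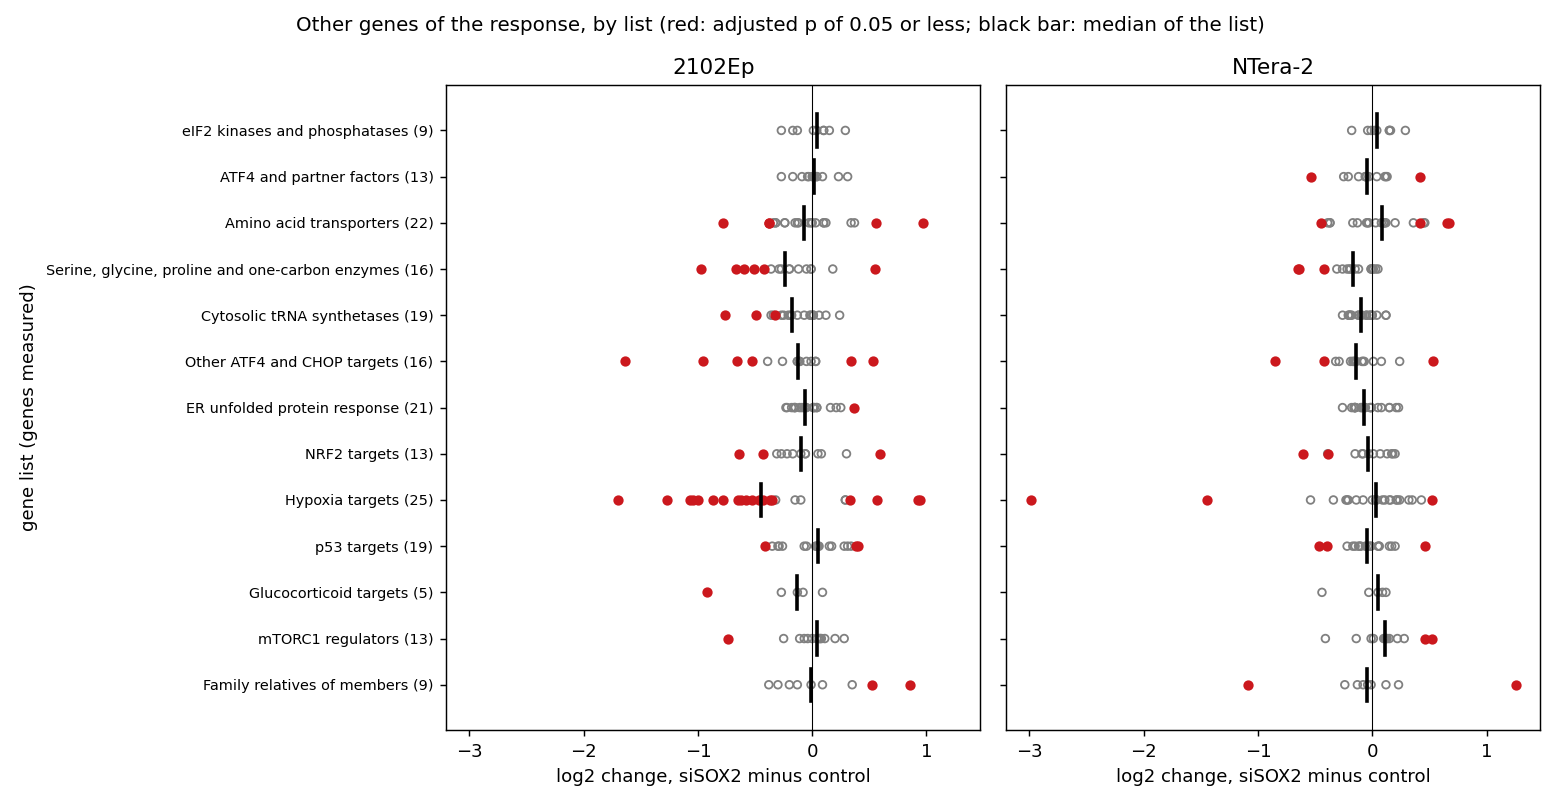
Log2 change after siSOX2 (horizontal axis) of each measured gene (points) of the 13 lists (vertical axis, with the number measured) in 2102Ep (left) and NTera-2 (right); red points have an adjusted p of 0.05 or less, open points do not, and the black bar is the median of the list. The median of the hypoxia targets is -0.445 on the left and 0.034 on the right. The enzymes of serine, glycine, proline and one-carbon metabolism have medians of -0.235 and -0.17.

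Genes with the most similar profile were found by the root mean square distance between log2 signals over the 12 arrays, each gene centred on its own mean. For DDIT4, whose own root mean square around its mean was 0.45, the nearest were BRWD3 (0.126), SCGB3A2 (0.131), HUS1 (0.153), CNTN1 (0.154) and UPK1A (0.157). For ASNS, at 0.55, they were LPAR3 (0.17), DPPA4 (0.182), SYT6 (0.193), MTHFD2 (0.199) and SMPDL3B (0.204). DPPA4 is a pluripotency-associated chromatin factor and LPAR3 a lysophosphatidic acid receptor. Of these genes MTHFD2 stands on the list of serine, glycine, proline and one-carbon enzymes, and its response was -0.60 in 2102Ep and -0.26 in NTera-2.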

How the data were processed

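Each array was deposited as log2 signals, 1 for each probe set, which the authors made per their methods by robust multi-array averaging in the scanner manufacturer's software (no version stated). Base 2 was taken from the range of the values, 1.57 to 14.98. The submitters' processing notes name limma. Such values understate changes of dim genes, and precision is limited by the number of arrays. Of 32321 probe sets 19158 had 1 gene in the platform annotation, 1388 several and 11775 none. Symbols of 18376 of the 18404 genes were matched to RefSeq (GRCh38.p14), and the probe set with the highest mean was used for the 637 genes with several. One mean per group was fitted to all 12 arrays with limma 3.58.1 in R 4.3.3, with Benjamini-Hochberg adjustment over all genes, and the procedure was tested on simulated data. With 3 arrays against 3 the tests rest on spread pooled across genes. Promoters of 9 members were found in the RefSeq table, SLC7A11 is named only. The members and lists were chosen with earlier results of these data known. The naming rule took the called genes of each list and, beside these, the 2 with the smallest p for the difference, and further list genes, ATF4 among them, were named after their values were seen. The same-numbered arrays of a line had deviations correlating at -0.249 to 0.179, so they were not treated as pairs. Plots were drawn with matplotlib 3.10.9.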

Additional observations from a re-analysis of the deposited data

Results flagged for a closer look

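DDIT4 moved in opposite directions, with every 2102Ep siSOX2 array below its controls (-0.98) and every NTera-2 siSOX2 array above (0.34), and this difference was not tested because it chose the gene. Of the list genes 26 had a response that differed between the lines at the limma adjusted p alone, 10 higher and 16 lower in 2102Ep. With the 2-fold threshold 8 of these were called (2102Ep minus NTera-2, log2). Those with a lower value in 2102Ep were P4HA1 (-1.28, adjusted p = 0.00118), DEPTOR (-1.26, adjusted p = 0.000308), SLC1A3 (-1.25, adjusted p = 0.000408), ALDOC (-1.08, adjusted p = 0.00312) and BNIP3 (-1.04, adjusted p = 0.00122). Those with a higher value were AK4 (1.29, adjusted p = 0.00638), GADD45G (1.11, adjusted p = 0.000646) and ADM (1.10, adjusted p = 0.000147). The difference was under 2-fold for AK4 with the mean of its probe sets (0.637), for GADD45G without 2102Ep control replicate 3 (0.972), for BNIP3 without 2102Ep control replicate 2 (-0.882) or NTera-2 siSOX2 replicate 3 (-0.985), and for ALDOC without 2102Ep control replicate 1 (-0.958), NTera-2 control replicate 1 (-0.992) or NTera-2 siSOX2 replicate 3 (-0.981). Quantile normalization again also took BNIP3 (-0.899) and ALDOC (-0.982) under 2-fold.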

How the results depend on the processing

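With the replicate number as a block 365 genes were called in 2102Ep, 121 in NTera-2, 307 for the difference between the responses and 1303 for the line difference, and no named gene changed its call at the 2-fold threshold. The responses of the members moved by less than the SD of each gene pooled over the 4 groups under every alternative run. That of DDIT4 in 2102Ep moved to -1.044 with quantile normalization again, by more than the SD of either of its 2102Ep groups (0.0338 and 0.0462). Without genes below the median signal, where ATF3 has no value, the counts were 212, 66, 166 and 796, from fewer genes tested. With no fold threshold they were 2330, 909, 957 and 10183. Of the list genes 50, 24, 26 and 135 then passed, and of the members 10 in the line difference. With quantile normalization again 1 member passed there, and without single arrays 1 to 3 did (1 without 2102Ep control replicate 3). List genes called in 2102Ep ran from 5 to 9 without single arrays. The line difference of DDIT4 was 0.17 with siSOX2 arrays only. In all 20 cases in which a gene called at 2-fold was no longer called it was under 2-fold, with the adjusted p still passing.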
